A study of Caenorhabditis elegans with 6 samples.

Results

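The aminoacyl-tRNA synthetase genes of Caenorhabditis elegans were followed across whole-animal libraries made with and without RNA interference (RNAi) against rab-11.1. They were chosen by name, as the listed genes whose names end in "ars-1" or "ars-2", the letters before "ars" standing for the amino acid. This gave 33 genes of the 46739 features listed, 20 with names ending in 1 and 13 with names ending in 2. The animals were wild-type N2 worms at the L4 larval stage, raised at 20 °C on HT115 bacteria, the strain used for feeding RNAi, with IPTG and carbenicillin in the plates. Worms fed bacteria with the empty vector gave 3 libraries, called controls below, and worms fed the rab-11.1 clone gave the other 3, called RNAi libraries. Feeding lasted through all of development in both groups. The RAB-11.1 protein is a Rab GTPase known for its work in membrane recycling, and the comparison asked how transcript levels differ after it is targeted. The labels call the libraries biological replicates, without stating how many animals each held or whether they came from separate cultures.

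Aminoacyl-tRNA synthetases join each amino acid to its matching tRNA, the step that gives the genetic code its meaning at the ribosome. They fall into class I and class II, which have unrelated catalytic folds. Cytosolic enzymes charge the tRNAs used by cytosolic ribosomes. Mitochondrial enzymes, also encoded in the nucleus, charge the tRNAs used inside mitochondria, and some genes supply both compartments. In mammals several cytosolic enzymes are bound together in a multi-synthetase complex. Uncharged tRNA is sensed by the kinase GCN2, which slows translation initiation.

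The target itself was read first. Controls held rab-11.1 at 411, 398 and 409 RPKM (read number per kilobase, relative to the depth of the library). RNAi replicates 1 and 2 held 151 and 138 RPKM of it, but the library labelled RNAi replicate 3 held 633 RPKM. The last library thus held more of the target than any control, although it is labelled as rab-11.1 RNAi. The reason was not tested. Results on the synthetase genes, the other named genes and the translation lists are also given without this library where that changes the call or the direction. The marker lists were not read without it. Depth, worked out from the lowest RPKM values, was 22946375 to 30183162 reads per library. By limma, 1245 of 13833 features tested (9.0%) had an adjusted p under 0.05. Of all features tested 1097 (7.93%) rose and 148 (1.07%) fell with RNAi. With the replicate number as a block 2906 passed, and 647 of 13580 tested passed without the library labelled RNAi replicate 3. With median-of-ratios scaling 553 rose and 284 fell, and the median over all features moved from 0.09 to -0.02 in log2 fold change.

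With the RPKM values as deposited and no block, no aminoacyl-tRNA synthetase gene passed the threshold in either direction. With the replicate block 1 passed, the prolyl gene pars-2 (adjusted p = 0.0441 by limma), and with median-of-ratios scaling or quantile normalization 1 passed, the phenylalanyl gene fars-2 (adjusted p = 0.0402 and 0.0392), both lower. All 33 were tested, 0 rose and 0 fell by limma, beside 9.0% of all features called, and 10 had an unadjusted p under 0.05, of which 4 were higher and 6 lower. This last count was 15 with median-of-ratios scaling or quantile normalization and 14 with the replicate block. It was 5 without empty vector replicate 1, 8 without replicate 2 and 4 without replicate 3. It was 4 without RNAi replicate 1, 3 without replicate 2 and 11 without the library labelled RNAi replicate 3. The share of all features at an unadjusted p under 0.05 was not computed in these settings, so these counts have no background. As deposited, the 10 are 30.3% of the genes, where 26.6% of all features tested reached an unadjusted p under 0.05 (21.6% higher and 4.93% lower). The estimated differences lay between log2 fold changes of -0.30 and 0.26, with a median of -0.04 beside 0.09 for all features tested. The 95% intervals of all 33 genes lay inside a 1.5-fold change in either direction, as did those of 49.6% of all features tested. The intervals of 12 of the 33 also lay inside a 1.25-fold change. Groups did not overlap for 16 of the 33 genes (48.5%, beside 33.9% of all features), 8 with every RNAi library above the controls (24.2%, beside 27.4%) and 8 with every RNAi library below (24.2%, beside 6.53%). RNA came from whole animals, so fewer cells that express a gene and less RNA per cell cannot be told apart.

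The summed level of the 33 genes overlapped between the groups as deposited, and was lower in every RNAi library after median-of-ratios scaling. As deposited it was 2331, 2361 and 2489 RPKM in the controls and 2401, 2311 and 2458 RPKM in the RNAi libraries. After median-of-ratios scaling it was 2414, 2507 and 2553 in the controls and 2283, 2199 and 2341 in the RNAi libraries. The genes took 0.557% to 0.611% of all reads of a library. Single genes rested on 132 to 16042 reads per library, and the counting error at a gene's mean read number ran from 0.854% for vars-2 to 7.63% for cars-2. The coefficient of variation between the controls had a median of 4.8% over the genes, and that between the RNAi libraries a median of 5.99%.

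**Figure D1:**
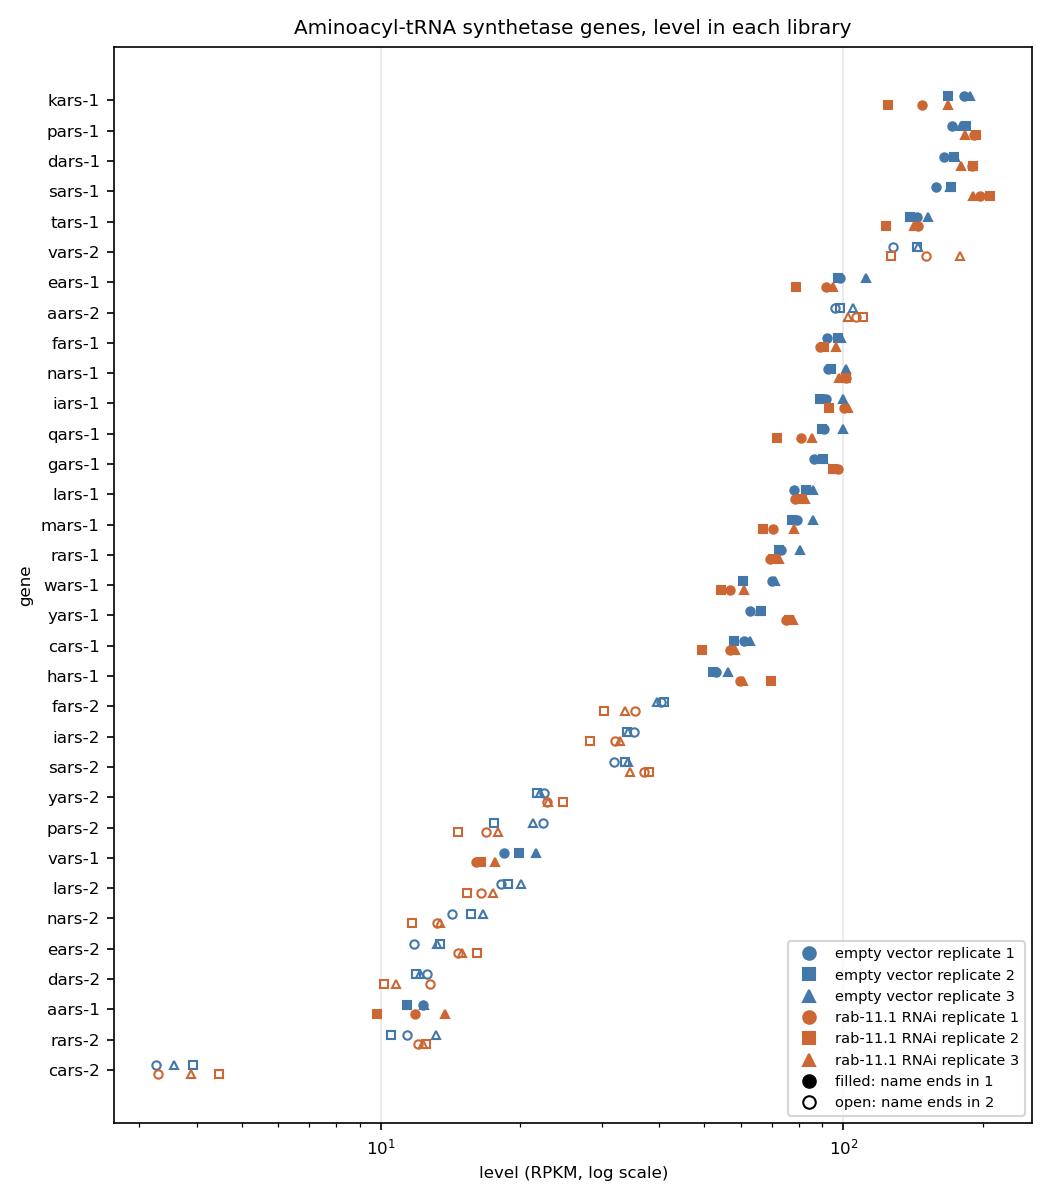
Level of each of the 33 aminoacyl-tRNA synthetase genes in RPKM on a log scale, ordered by the empty vector mean, with 1 point per library (blue, empty vector; orange, rab-11.1 RNAi; the marker shape gives the replicate). Filled points are genes whose names end in 1 and open points those ending in 2. The filled points sit above the open ones except for aars-1 and vars-1 (12 and 20 RPKM) and their partners aars-2 and vars-2 (99.8 and 139 RPKM).

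Levels separated into a high and a low set that followed the numbering with 2 exceptions. In the rule, 1 stands for a cytosolic and 2 for a mitochondrial enzyme. Of the 20 genes ending in 1, 18 stood at means of 53.9 to 180 RPKM in the controls, from the histidyl enzyme hars-1 to the lysyl enzyme kars-1. Of the 13 ending in 2, 11 stood at 3.58 to 40.3 RPKM, from the cysteinyl enzyme cars-2 to the phenylalanyl enzyme fars-2. The exceptions were the alanyl and valyl pairs. The gene aars-1 stood at 12.3, 11.4 and 12.4 RPKM in the controls and aars-2 at 96, 98.4 and 105 RPKM. For valine, vars-1 stood at 18.5, 19.9 and 21.6 RPKM and vars-2 at 128, 144 and 145 RPKM. In both pairs the gene ending in 2 was therefore the higher one in every control, against the meaning given to the numbers. Where the enzymes act in the cell was not measured here, and the genes are called below by their numbers alone.

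The order of levels was broadly kept between the groups, with 6 of the 33 genes at the same rank in both. The rank correlation of the group means over the 33 genes was 0.98, a description over genes measured in the same libraries. The largest move in rank was 5 places, by the glutamyl enzyme ears-1. The range from the highest to the lowest gene in the controls was 50.1-fold. This is wide beside the differences between the groups, so a high rank correlation was to be had in any case.

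Among genes ending in 1, the seryl and tyrosyl enzymes had the smallest adjusted p values of all members. The seryl gene sars-1 (WBGene00005663, WBcel235 chromosome IV, 10003726 to 10005578, plus strand) stood at 158, 171 and 169.9 RPKM in the controls and at 197, 208 and 191 RPKM in the RNAi libraries. All RNAi libraries lay above all controls. The difference did not pass (log2 fold change 0.26, SE 0.07, adjusted p = 0.0763 by limma), and its 95% interval ran from 1.06-fold to 1.34-fold higher. The tyrosyl gene yars-1 (WBGene00013677, chromosome I, 14476759 to 14486767, minus strand) stood at 62.9, 66.3 and 65.9 RPKM and at 75.1, 76.3 and 78 RPKM, again without overlap. Its log2 fold change was 0.23 (SE 0.06, adjusted p = 0.0743), with an interval of 1.06-fold to 1.3-fold. Exons of sars-1 overlap C47E12.13 and those of yars-1 overlap ekl-4 on the other strand. Whether reads were counted by strand is not given in the labels, so reads of these overlaps cannot be assigned to either gene. Such antisense overlaps were annotated for 12 of the 33 genes.

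The histidyl gene hars-1 was also above the controls in every RNAi library. It stood at 53.1, 52.3 and 56.2 RPKM and at 59.9, 69.7 and 60.6 RPKM (log2 fold change 0.23 with an SE of 0.08, adjusted p = 0.144). The aspartyl gene dars-1 (log2 fold change 0.13) and the glycyl gene gars-1 (0.11) showed the same order of groups with smaller differences. For gars-1 the values were 86.5, 90.2 and 90.4 RPKM against 97.2, 94.9 and 96.5 RPKM, and the interval ran from 0.974-fold to 1.2-fold.

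The lysyl gene kars-1 had the lowest log2 fold change of the members. This gene (WBGene00002238, chromosome II, 7070183 to 7072415, minus strand) stood at 182, 169 and 188 RPKM in the controls and at 148, 125 and 168.1 RPKM after RNAi. The groups were separated by less than 1 RPKM, between empty vector replicate 2 and the library labelled RNAi replicate 3. The log2 fold change of -0.30 (SE 0.12) did not pass, with an adjusted p of 0.164. When the library labelled RNAi replicate 3 was left out, the log2 fold change was -0.40 and still did not pass (adjusted p = 0.0936).

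Other genes ending in 1 with every RNAi library below the controls were the glutaminyl gene qars-1, the glutamyl gene ears-1 and the valyl gene vars-1. The values of qars-1 were 90.9, 90 and 99.7 RPKM against 80.8, 71.9 and 85.6 RPKM (log2 fold change -0.24, adjusted p = 0.151). Those of ears-1 were 98.2, 97.5 and 112 RPKM against 91.6, 79.2 and 95.1 RPKM (log2 fold change -0.21, adjusted p = 0.23). In the RNAi libraries vars-1 was at 16.1, 16.5 and 17.7 RPKM (log2 fold change -0.24, adjusted p = 0.145). The tryptophanyl gene wars-1 had an unadjusted p of 0.0415 with overlapping groups, at 70.2, 60.8 and 71 RPKM against 56.8, 54.3 and 61.1 RPKM. Its overlap came from the library labelled RNAi replicate 3 alone.

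The genes for alanine, isoleucine, leucine, asparagine, proline, arginine, threonine, methionine, cysteine and phenylalanine ending in 1 overlapped between the groups. Among them the leucyl gene lars-1, at 78.1, 83.1 and 85.8 RPKM against 78.6, 81.3 and 82.8 RPKM, had a log2 fold change of -0.02 and an interval of 0.877-fold to 1.1-fold. The asparaginyl gene nars-1 (log2 fold change 0.06) and the phenylalanyl gene fars-1 (-0.06) differed by little more. The largest of these differences was that of the methionyl gene mars-1, at -0.17 (adjusted p = 0.257). For cars-1, fars-1, mars-1, rars-1 and pars-1 only the library labelled RNAi replicate 3 overlapped the controls. RNAi replicates 1 and 2 lay above every control for pars-1 and below every control for the others.

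**Figure D2:**
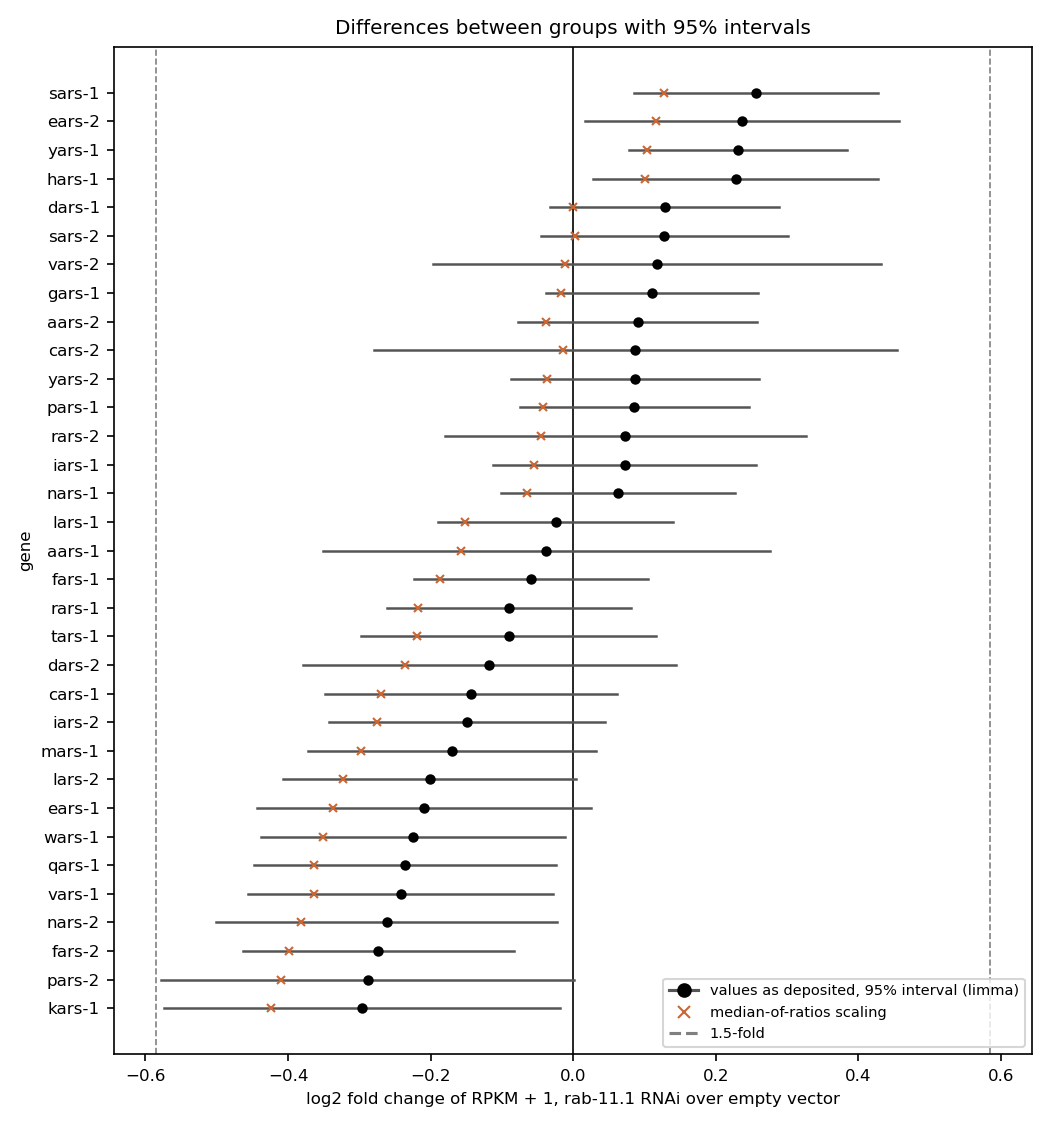
Log2 fold change of RPKM + 1 after RNAi for each of the 33 genes (black points), with the 95% interval from limma (grey lines), dashed lines at a 1.5-fold change and orange crosses for median-of-ratios scaling. All intervals lie between the dashed lines, sars-1 is highest (0.26) and kars-1 lowest (-0.30), and every cross lies to the left of its point.

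Among genes ending in 2, the phenylalanyl, asparaginyl, prolyl and leucyl enzymes were lower and the glutamyl enzyme higher, none past the threshold with the values as deposited and no block. The phenylalanyl gene fars-2 (WBGene00013361, chromosome V, 19897977 to 19907434, minus strand) stood at 40.3, 41 and 39.5 RPKM in the controls and at 35.5, 30.4 and 33.8 RPKM in the RNAi libraries, without overlap. Its log2 fold change was -0.27 (SE 0.08, adjusted p = 0.0852 by limma). With median-of-ratios scaling it passed (log2 fold change -0.40, adjusted p = 0.0402), and so it did with quantile normalization (-0.41, adjusted p = 0.0392). The asparaginyl gene nars-2 stood at 14.2, 15.7 and 16.7 RPKM against 13.2, 11.7 and 13.4 RPKM (log2 fold change -0.26, adjusted p = 0.155).

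The prolyl gene pars-2 (WBGene00004190, chromosome I, 12486944 to 12490890, plus strand) varied most between control libraries, at 22.4, 17.6 and 21.3 RPKM. It was at 16.9, 14.7 and 18 RPKM after RNAi (log2 fold change -0.29 with an SE of 0.12, adjusted p = 0.19). Empty vector replicate 2 lay below the library labelled RNAi replicate 3 alone, so the overlap of the groups rested on that library. With the replicate number as a block pars-2 passed (adjusted p = 0.0441). Its exons overlap those of T27F6.6 on the same strand, and reads there cannot be assigned to either gene. The leucyl gene lars-2 and the isoleucyl gene iars-2 were lower in every RNAi library than in any control (log2 fold changes -0.20 and -0.15).

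The glutamyl gene ears-2 went the other way. It stood at 11.8, 13.4 and 13.2 RPKM in the controls and at 14.7, 16.2 and 15 RPKM after RNAi, without overlap (log2 fold change 0.24, SE 0.09, adjusted p = 0.16). In mitochondria of many species glutamyl-tRNA synthetase also charges the tRNA for glutamine, and no gene named qars-2 was among the members. The seryl gene sars-2 and the tyrosyl gene yars-2 were likewise above the controls in every RNAi library (log2 fold changes 0.13 and 0.09). The groups overlapped for aars-2, cars-2, dars-2, pars-2, rars-2 and vars-2, for aars-2 and pars-2 through the library labelled RNAi replicate 3 alone.

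The valyl gene vars-2 rested most on single libraries. It stood at 128, 144 and 145 RPKM in the controls and at 151, 127 and 179 RPKM in the RNAi libraries, the highest value being that of the library labelled replicate 3. The log2 fold change was 0.12 (SE 0.13, adjusted p = 0.623), -0.01 without that library (adjusted p = 0.979) and 0.24 without RNAi replicate 2. The symbol vars-2 is not used in the annotation given here. The transcript length that made its reads whole numbers was 3568 bases, equal to the annotated exon length of glp-4. That gene is known to encode a valyl-tRNA synthetase needed for germline growth, and no feature was listed as glp-4. Among the 31 synthetase genes matched to Ensembl by symbol, the length found in this way equalled the annotated exon length for only 2.

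**Figure D3:**
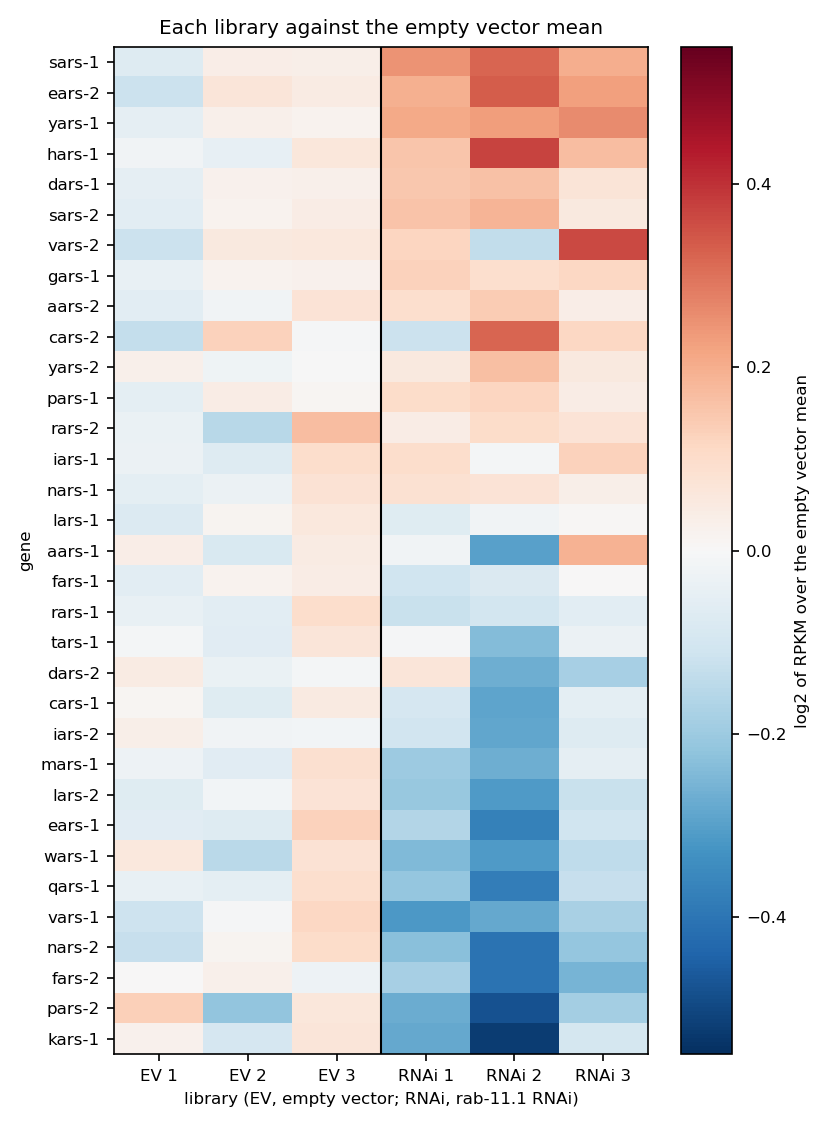
Heat map of the log2 ratio of each library's RPKM to the empty vector mean for the 33 genes, ordered by log2 fold change, with the empty vector libraries to the left of the line and the RNAi libraries to the right. The strongest colours are in RNAi replicate 2, which lay farthest from the empty vector mean for 24 of the 33 genes.

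The RNAi libraries differed in how far they lay from the controls. For 24 of the 33 genes RNAi replicate 2 was the library of its group farthest from the empty vector mean, replicate 1 for 6 and the library labelled replicate 3 for 3. The library labelled replicate 3 lay nearest to the empty vector mean for 20 genes, replicate 1 for 11 and replicate 2 for 2. The library with the most rab-11.1 RNA was thus most often the closest to the controls. However, RNAi replicates 1 and 2 held similar levels of rab-11.1 (151 and 138 RPKM) and were farthest for 6 and 24 genes. Why the libraries differed was not tested. Of the marker lists, the summed level of 5 neuronal genes was 224 to 249 RPKM in the controls and 302 to 442 RPKM after RNAi. Of these genes 1 was called higher, beside 7.93% of all features. This call and that in the epidermal list below were not read from the fits that left out a library. The summed level of 4 body wall muscle genes was 2207 to 2249 against 1653 to 1962 RPKM. That of 3 pharyngeal genes was 84.8 to 93.1 against 54.7 to 74.7 RPKM, with 0 called in either list by limma. How often sums of other gene lists separate was not computed. At an unadjusted p under 0.05, 3 muscle genes were lower, as were 2 pharyngeal genes, while 1 pharyngeal gene was higher. Of all features, 4.93% were lower and 21.6% higher at that threshold. Sums of the germline, sperm, intestinal and epidermal lists overlapped between the groups. Within each of the 3 same-numbered pairs, though, the germline, sperm and intestinal sums were lower in the RNAi library. Replicate 2 had the lowest germline sum of both groups, at 617, 359 and 560 RPKM in the controls and 435, 283 and 475 RPKM after RNAi. The same held for the sperm sum, at 155, 65 and 147 RPKM and at 123, 55.8 and 101 RPKM. Of 5 epidermal genes 1 was called higher (beside 7.93% of all features), and 1 was lower at an unadjusted p under 0.05 (beside 4.93%). The log2 fold changes of the epidermal genes ran from -3.08 to 0.60. No marker of any list was at 0 in all libraries. Their part in the results on the synthetase genes was not tested.

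For 13 amino acids both a gene ending in 1 and a gene ending in 2 were listed, and the ratio of their levels within a library does not depend on the scaling of that library. The gene ending in 1 was the higher in 11 pairs and the gene ending in 2 in 2. The ratio of the higher to the lower gene was lowest for phenylalanine and highest for cysteine, at 2.39 ± 0.105 and 17 ± 2.02 in the controls (SD, n = 3). After RNAi all libraries lay above all controls in 8 pairs and below them in 2, and the groups overlapped in 3. In the pairs for alanine and proline the overlap came from the library labelled RNAi replicate 3 alone. These differences in ratio were not tested, and the share of such separations over other gene pairs was not computed.

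The glutamyl pair moved most among those where the ratio fell below the controls. The ratio of ears-1 to ears-2 was 8.32, 7.26 and 8.45 in the controls and 6.24, 4.9 and 6.34 in the RNAi libraries. The ratio of nars-1 to nars-2 went the other way, from 6.5, 5.99 and 6.09 to 7.67, 8.64 and 7.32. For valine, vars-2 over vars-1 went from 6.94, 7.26 and 6.7 to 9.39, 7.71 and 10.1. In 9 of the 13 pairs the log2 fold changes of the partners had opposite signs with the values as deposited. This count depends on the scaling: it was 2 with median-of-ratios scaling and 6 with quantile normalization.

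**Figure D4:**
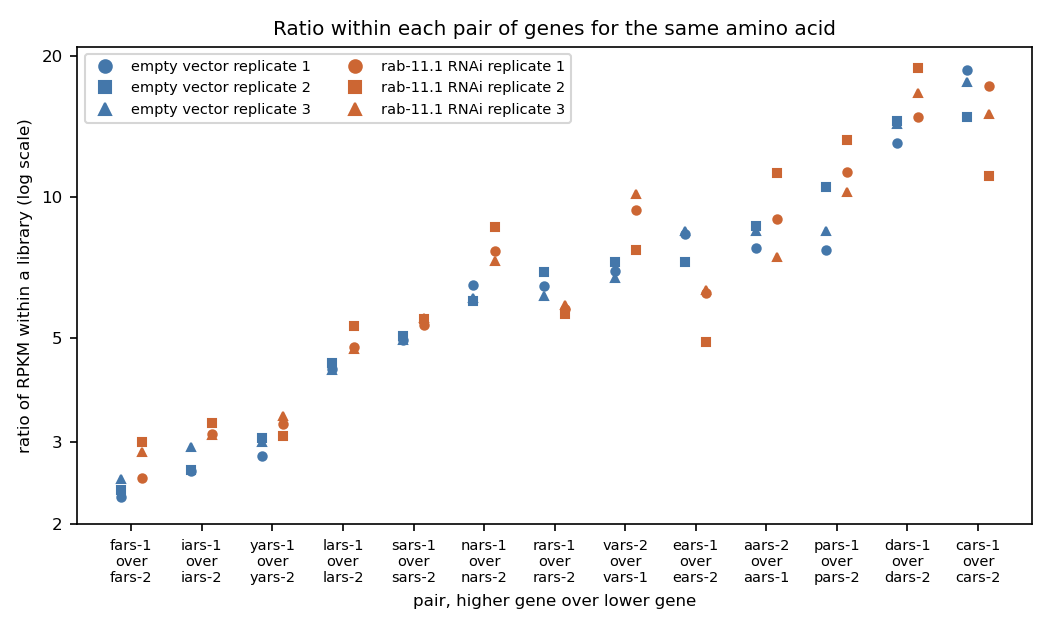
Ratio of RPKM within each library (log scale) for the 13 amino acids with a gene ending in 1 and a gene ending in 2, higher gene over lower gene, with 1 point per library (blue, empty vector; orange, rab-11.1 RNAi). The orange points lie above the blue ones in 8 pairs and below them in 2, the pairs for glutamate and arginine.

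The 7 genes ending in 1 without a partner were those for glycine, histidine, lysine, methionine, glutamine, threonine and tryptophan. The rule missed 1 methionyl gene that is listed by its sequence name. Y105E8A.20, named mars-2 in RefSeq, lies on chromosome I on the minus strand, 109 bases from yars-1. It was looked up after the values of yars-1 were seen. It stood at 15.5, 15.4 and 15.2 RPKM in the controls and at 18.7, 18.4 and 19.4 RPKM after RNAi (log2 fold change 0.27, SE 0.07, adjusted p = 0.0681 by limma, and 0.0443 with the replicate block). These neighbouring genes were thus both above the controls in every RNAi library. The other neighbours, cars-1 and cars-2, lie 1572 bases apart on chromosome I by RefSeq, with log2 fold changes of -0.14 and 0.09 and overlapping groups.

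Cytosolic phenylalanyl-tRNA synthetase is built of alpha and beta subunits, of which fars-1 is known to encode the alpha and fars-3, outside the rule, the beta subunit. The levels of fars-3 were 103, 99.7 and 107 RPKM in the controls, near the 92.2, 97.3 and 98.8 RPKM of fars-1. After RNAi fars-3 stood at 91.2, 87.1 and 93.9 RPKM (log2 fold change -0.19, adjusted p = 0.142) and fars-1 at 89.2, 91 and 96.4 RPKM. The fars-3 libraries did not overlap between the groups, whereas those of fars-1 did, through the library labelled RNAi replicate 3 alone. With median-of-ratios scaling fars-3 passed (log2 fold change -0.31, adjusted p = 0.0449).

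By catalytic class, 0 of 17 class I genes and 0 of 16 class II genes passed by limma. At an unadjusted p under 0.05 stood 5 and 5 (29.4% and 31.25%, beside 26.6% of all features). In each class 3 of these were lower (17.6% and 18.75%, beside 4.93% of all features). The other 2 in each were higher (11.8% and 12.5%, beside 21.6%). The median log2 fold change was -0.09 over class I and 0.01 over class II. Among genes ending in 1, 8 of 10 class I genes and 4 of 10 class II genes had a negative log2 fold change, and the medians were -0.16 and 0.07. With median-of-ratios scaling 9 of 10 and 8 of 10 were negative, with medians of -0.28 and -0.05, and with quantile normalization 9 of 10 and 5 of 10. The 9 genes ending in 1 whose mammalian counterparts sit in the multi-synthetase complex had a median of -0.09 and ranged from -0.30 (kars-1) to 0.13 (dars-1). The other 11 had a median of -0.04. The difference between these sets was not tested.

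Other genes of translation were read from lists, beside 26.6% of all features at an unadjusted p under 0.05 (21.6% higher and 4.93% lower). Of 22 initiation factor genes 0 passed, with a median log2 fold change of -0.04. At an unadjusted p under 0.05, 2 were lower (9.09%, beside 4.93% of all features) and 0 higher (beside 21.6%). Of 6 elongation factor genes 0 passed, with a median of -0.08, and 1 was lower at that threshold (16.7%, beside 4.93%) and 0 higher. Of 78 cytosolic ribosomal protein genes tested, of 79 listed, 0 rose and 1 fell. This was rps-2, of the small subunit, from 2317 ± 111 to 1889 ± 66.3 RPKM (SD, n = 3; log2 fold change -0.29, adjusted p = 0.0499 by limma). Its call was lost in each of the 6 fits that left out 1 library, at adjusted p values of 0.0866 to 0.199. Of 66 mitochondrial ribosomal protein genes 0 rose and 2 fell, with a median of -0.13 and a negative log2 fold change in 57. At an unadjusted p under 0.05, 19 were lower (28.8%, beside 4.93% of all features) and 0 higher, and in 24 every RNAi library lay below the controls (36.4%, beside 6.53%). The 2 that fell after adjustment were mrpl-37, from 45.8 ± 1.38 to 36.5 ± 1.53 RPKM (adjusted p = 0.0379), and mrpl-38, from 52.7 ± 1.36 to 42.6 ± 2.17 RPKM (adjusted p = 0.0475). Both calls were lost in each of those 6 fits, at adjusted p values of 0.0739 to 0.141 and 0.077 to 0.194. In the fit as deposited, 1.07% of all features were called lower. Median-of-ratios scaling called 9 mitochondrial ribosomal protein genes lower, beside 2.05% of all features, and the replicate block 5, beside 4.47%.

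The 4 mitochondrial translation factor genes had log2 fold changes of -0.47 to -0.27, with 0 passing. At an unadjusted p under 0.05, 3 were lower, beside 4.93% of all features. The lowest was gfm-1, a mitochondrial elongation factor gene, from 85.8 ± 7.52 to 61.7 ± 8.23 RPKM (adjusted p = 0.0576), named after its values were seen. With the replicate block gfm-1 passed (adjusted p = 0.0496), as it did with median-of-ratios scaling (adjusted p = 0.0405) and quantile normalization (adjusted p = 0.0425). Of 10 tRNA modification genes 0 passed, with 0 at an unadjusted p under 0.05 and a median of 0.08. Of 6 genes of the pathway that reads uncharged tRNA and other stresses, 1 was higher and 2 were lower at an unadjusted p under 0.05. These are 16.7% and 33.3%, beside 21.6% and 4.93% of all features. The log2 fold changes of the 6 ran from -0.95 to 0.46. After adjustment 0 rose and 1 fell. This was asns-2, an asparagine synthetase gene, which makes the free amino acid and is not a tRNA synthetase. It stood at 34.9, 59.7 and 40.8 RPKM in the controls and at 20.3, 21.3 and 25.7 RPKM after RNAi (log2 fold change -0.95, SE 0.20, adjusted p = 0.0336 by limma). The call was lost without empty vector replicate 3 (adjusted p = 0.114), without RNAi replicate 1 (0.109), without replicate 2 (0.0909) and without the library labelled replicate 3 (0.0596).

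**Figure D5:**
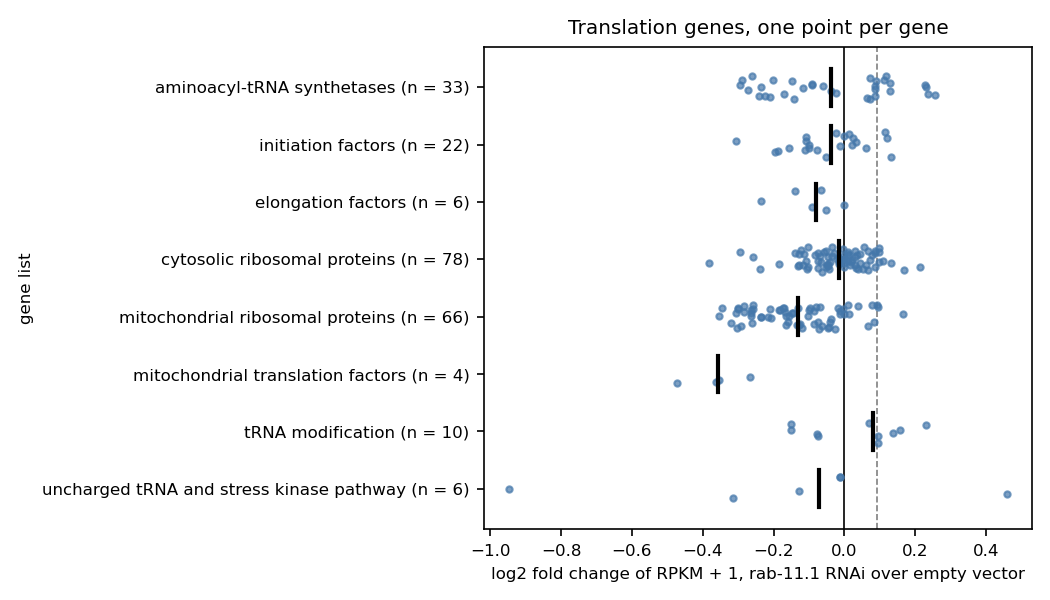
Log2 fold change of RPKM + 1 after RNAi for each tested gene of 8 lists (points, spread vertically for legibility), with the median of each list as a black bar, a solid line at 0 and a dashed line at the median of all features tested (0.09). The synthetase genes lie between -0.30 and 0.26 around a median of -0.04, and the lowest list median is that of the 4 mitochondrial translation factor genes (-0.36).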

How the data were processed

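Polyadenylated RNA of whole worms was sequenced in 6 libraries, 3 per group, and groups and replicate numbers were taken from the labels. The authors deposited RPKM values and group means of RPKM for 46739 features from paired reads, per the file headers. Their build, by the submitters' processing notes, was WBcel235; the sources used here name no aligner, counter, annotation release or strand setting. Read numbers were recovered here from the RPKM values: the depth from features with 1 read, and each gene's length as the shortest that gave whole reads in every library within 0.002 reads, which was found for all 33 synthetase genes. Counting errors cover reads alone, which are not independent molecules.

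Testing used every feature that reached 1 RPKM in 3 or more libraries, as log2(RPKM + 1), a scale that understates changes of genes at low levels, with limma 3.58.1 (R 4.3.3), robust eBayes with a trend, a two-sided test of the group with no other term, and Benjamini-Hochberg adjustment over all 13833 features. The procedure was run on simulated data in which libraries varied independently, without the replicate pairing described below. That run is not used as support for any result. Annotation came from Ensembl release 115, which matched 31 members by symbol, and RefSeq, which matched cars-2. All members, rab-11.1 and, per list, up to 2 called genes in each direction were to be named. The members and lists were chosen with earlier results of these data known. No sequence is shown.

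Same-numbered libraries of the groups deviated together (correlations of 0.40, 0.62 and 0.35 over the tested features), so the numbers were taken to pair them. Control replicate 1 also deviated with RNAi replicate 3 (0.46), so the rule cannot show which of replicates 1 and 3 belong together. P-values set the difference between the groups against the spread between libraries of a group, which may be technical in part. The main fit, with its SEs and intervals, does not use the replicate pairing. Alternatives changed the pseudocount, filter, trend, scaling and replicate block, or left out libraries.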

Additional observations from a re-analysis of the deposited data

How the results depend on the processing

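None of the 33 synthetase genes was called in 12 of 15 alternative settings, and 1 was called lower in each of the other 3: fars-2 with median-of-ratios scaling and with quantile normalization, and pars-2 with the replicate block. In the 6 fits that left out 1 library 0 of the 33 were called, the lowest adjusted p by limma being 0.0851, and their median log2 fold change ran from -0.092 to -0.017, while the features called in all ran from 284 to 1063. With median-of-ratios scaling that median was -0.157, and with quantile normalization -0.154; it lay 0.087 to 0.18 below the median of all features in every setting. Signs held in all 15 settings for 20 genes. With median-of-ratios scaling the log2 fold change turned negative for aars-2 (-0.038), cars-2 (-0.015), dars-1 (-0.00035), gars-1 (-0.018), iars-1 (-0.055), nars-1 (-0.065), pars-1 (-0.043), rars-2 (-0.046), vars-2 (-0.011) and yars-2 (-0.037). With quantile normalization it did for aars-2 (-0.0078), cars-2 (-0.058), iars-1 (-0.026), nars-1 (-0.036), rars-2 (-0.074), sars-2 (-0.0097) and yars-2 (-0.058). Leaving out 1 library, the log2 fold change crossed 0 for aars-1 (-0.145 to 0.079), lars-1 (-0.062 to 0.0049) and vars-2 (-0.0057 to 0.241).

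Median-of-ratios scaling called 9 mitochondrial ribosomal protein genes lower, quantile normalization 8 and the replicate block 5, against 0 with no filter, with no trend, with both replicate 3 libraries left out of the block and in the fits without 1 library. Cytosolic ribosomal protein genes called lower were 2 with median-of-ratios scaling and the block, and 0 in the 6 fits without 1 library, at a pseudocount of 5, with no filter, a filter on the mean, no trend, quantile normalization or the block without both replicate 3 libraries. Of the 6 genes that read uncharged tRNA and other stresses, median-of-ratios scaling, quantile normalization and the block each called 2 lower. No filter called 0 lower and the fits without 1 library 0 to 1. The block also called 1 higher, beside 16.5% of all features. The shares of all features called lower were 2.05% with median-of-ratios scaling, 1.8% with quantile normalization, 4.47% with the block and 0.498% with no filter. In the fits without 1 library they were 0.146% to 0.911%. Of the initiation factors 2 were lower with median-of-ratios scaling and 1 with quantile normalization and the block, and of the mitochondrial translation factors 1 in each of these 3. Outside the 33 genes, the synthetase gene fars-3 was called lower with median-of-ratios scaling. Of the elongation factors 1 was lower with median-of-ratios scaling and with the block. The cause was not tested. All features called were 2906 with the block, whose numbers are taken to pair the libraries, and it changed no other call among the 33 synthetase genes. They were 837 with median-of-ratios scaling (66.1% higher, against 88.1% as deposited) and 773 with quantile normalization (67.8% higher).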
